A study of Mus musculus with 8 samples.

Results

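The genes examined were 10 heparan sulfate genes: the extracellular 6-O-sulfatases Sulf1 and Sulf2, the syndecans Sdc1, Sdc2, Sdc3 and Sdc4, and the glypicans Gpc1, Gpc3, Gpc4 and Gpc6. They were taken by symbol from the 54532 genes of the count table, and all 10 were among the 15564 genes with enough counts to be tested. They were selected on measured values of these same libraries, since the higher Sulf2 level in hyperoxia was already known. Their levels and differences are therefore given as a description, and calls of the fit across all genes are counted once for them, beside the share of all genes, without serving as a test. The libraries came from lung endothelial cells (ECs) of wild-type (WT) C57BL/6J mouse pups, read by bulk RNA-seq on day 14 after birth. There were 4 libraries from pups kept in room air (normoxia, 21% O2) and 4 from pups kept in hyperoxia (80% O2), in both cases from P0 to P14. Cell suspensions of both groups had been depleted of CD45-positive leukocytes before cells bound by CD31-coated beads were collected, so the isolates were enriched for ECs rather than pure. The labels do not say that the libraries came from separate animals, and p-values thus measure the spread between these libraries, which may be technical in part.

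Heparan sulfate is a long sugar chain carried by core proteins at the cell surface and in the matrix, where its sulfated stretches bind growth factors such as FGFs and VEGF and present them to their receptors. Syndecans cross the cell membrane, whereas glypicans are anchored in it by a lipid. The SULF enzymes act outside the cell and take 6-O-sulfate groups off finished chains, which changes which ligands the chains hold. In the lung, ECs line their luminal surface with such chains as part of the glycocalyx, and epithelial and mesenchymal cells carry them as well.

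Total counts lay between 16098086 and 18300730 per library. The summed expression of 10 EC markers (Pecam1, Cdh5 and others) was 15950–16870 CPM (counts scaled to a common library size) in normoxia and 15500–16330 CPM in hyperoxia. Of these 10 markers, 3 were up and 3 down in hyperoxia, from Tek at -0.79 on the log2 scale to Emcn at 0.42. Markers of other lung cells were higher in the hyperoxia libraries. The sum of 8 alveolar type 2 markers was 237–335 CPM in normoxia and 759–2287 CPM in hyperoxia, that of 6 alveolar type 1 markers 76.0–93.6 against 157–449 CPM, and that of 6 general epithelial markers 4.70–9.98 against 17.9–59.7 CPM. All 8, all 6 and the 5 tested of these lists rose. The fibroblast sum was 117–226 against 175–416 CPM (5 of 7 tested markers rose) and the mural sum 23.5–47.9 against 45.5–107 CPM (6 of 7 rose). The leukocyte sum was 174–368 against 228–526 CPM, with 2 of 9 tested markers up and 1 down. For mesothelial markers it was 0.0552–0.735 against 0.859–2.0 CPM (1 of 1 tested rose), and for airway markers 1.65–3.20 against 2.61–3.38 CPM, with neither of the 2 tested past the threshold and Krt5 at 0 in all libraries. The library hyperoxia 3 stood apart: it had the lowest alveolar, general epithelial, fibroblast, mural, leukocyte and mesothelial sums of the 4 hyperoxia libraries. Differences of the 10 genes and counts of the gene lists are therefore given with and without it. In such bulk samples, a change in the number of cells of a type and a change in RNA per cell cannot be told apart.

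Across the 10 genes, 8 passed an adjusted p of 0.05 (edgeR quasi-likelihood test, Benjamini-Hochberg over all tested genes), all higher in hyperoxia and none lower. Of all tested genes, 18.5% passed this threshold upward and 17.1% downward. A log2 fold change of at least 1 was also reached by 7 genes, namely Sulf2, Sdc1, Sdc2, Sdc4, Gpc1, Gpc3 and Gpc4, against 5.62% of all tested genes upward and 1.36% downward. The 4 hyperoxia libraries lay above all 4 normoxia libraries for 6 genes (Sulf2, Sdc1, Sdc3, Sdc4, Gpc1 and Gpc4). The same held for 17.8% of all tested genes, and 17.6% were separated in the opposite direction. Because the genes were chosen with this contrast in view, nothing is read from these counts. Without hyperoxia 3 the count at the adjusted p was again 8. When any one of normoxia 2, normoxia 3, normoxia 4, hyperoxia 1 or hyperoxia 2 was left out, Sdc2 dropped out of the 7, and without hyperoxia 2 Gpc6 joined them.

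**Figure D1:**
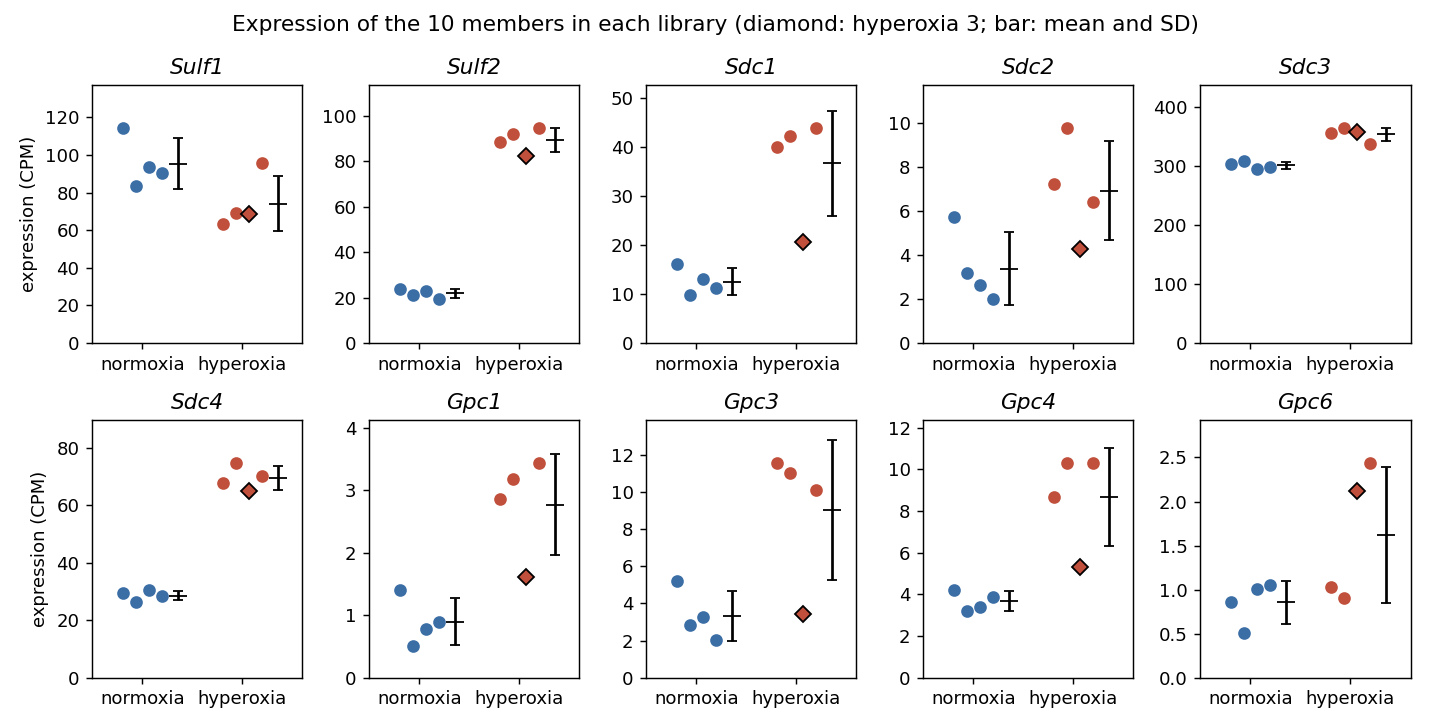
Expression of each of the 10 genes in every library, in CPM on a linear axis from 0, with normoxia in blue and hyperoxia in red. The bars give the mean and SD of 4 libraries and the diamond marks hyperoxia 3. For Sulf2 and Sdc4 the hyperoxia libraries sit close together and far above normoxia, whereas for Sdc1 and Gpc3 hyperoxia 3 lies well below the other hyperoxia libraries.

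Sulf2, which encodes a 6-O-endosulfatase (gene ENSMUSG00000006800, GRCm38 chr2:166073089-166155663, minus strand), showed the largest difference of the 10 genes on the log2 scale. Its expression was 23.8, 21.0, 22.8 and 19.6 CPM in normoxia 1 to 4 and 88.6, 91.9, 82.3 and 94.7 CPM in hyperoxia 1 to 4. The lowest hyperoxia library was far above the highest normoxia library, and hyperoxia 3 was close to the rest of its group. The mean was 21.8 ± 1.87 CPM in normoxia and 89.4 ± 5.33 CPM in hyperoxia (SD, n = 4 each), which differ by 2.04 on the log2 scale (SE 0.0711), or 4.11-fold. It was 2.07 without hyperoxia 3.

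Sulf1 encodes the other enzyme of this kind (ENSMUSG00000016918, chr1:12692277-12861192, plus strand). It did not share the pattern: it had 114, 83.4, 93.7 and 90.3 CPM in normoxia and 63.3, 69.0, 68.5 and 95.9 CPM in hyperoxia. Of the hyperoxia libraries, 1, 2 and 3 lay below every normoxia library, while hyperoxia 4 lay above normoxia 2, 3 and 4, so the groups overlapped. The means were 95.4 ± 13.3 and 74.2 ± 14.7 CPM, with a difference of -0.36 on the log2 scale (SE 0.132, or -0.33 without hyperoxia 3).

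The balance of both sulfatases differed accordingly. Per length, in FPKM (fragments counted per length of the gene and per size of the library), Sulf2 made up 30.6 ± 1.95% of their summed level in normoxia and 70.0 ± 3.29% in hyperoxia. The single libraries ranged from 28.6 to 32.6% in normoxia and from 65.5 to 72.9% in hyperoxia. The ratio of Sulf2 to Sulf1 in CPM was 0.208 to 0.252 in normoxia (0.230 ± 0.0210) and 0.987 to 1.40 in hyperoxia (1.23 ± 0.181). In hyperoxia 4, the library with the lowest of these hyperoxia ratios, Sulf2 thus had slightly fewer CPM than Sulf1, although it had more FPKM. Their summed level was 12.1 ± 1.46 FPKM in normoxia and 21.7 ± 1.98 FPKM in hyperoxia, and hyperoxia 3 (20.03 FPKM, 69.8% Sulf2) was like the other libraries of its group.

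**Figure D2:**
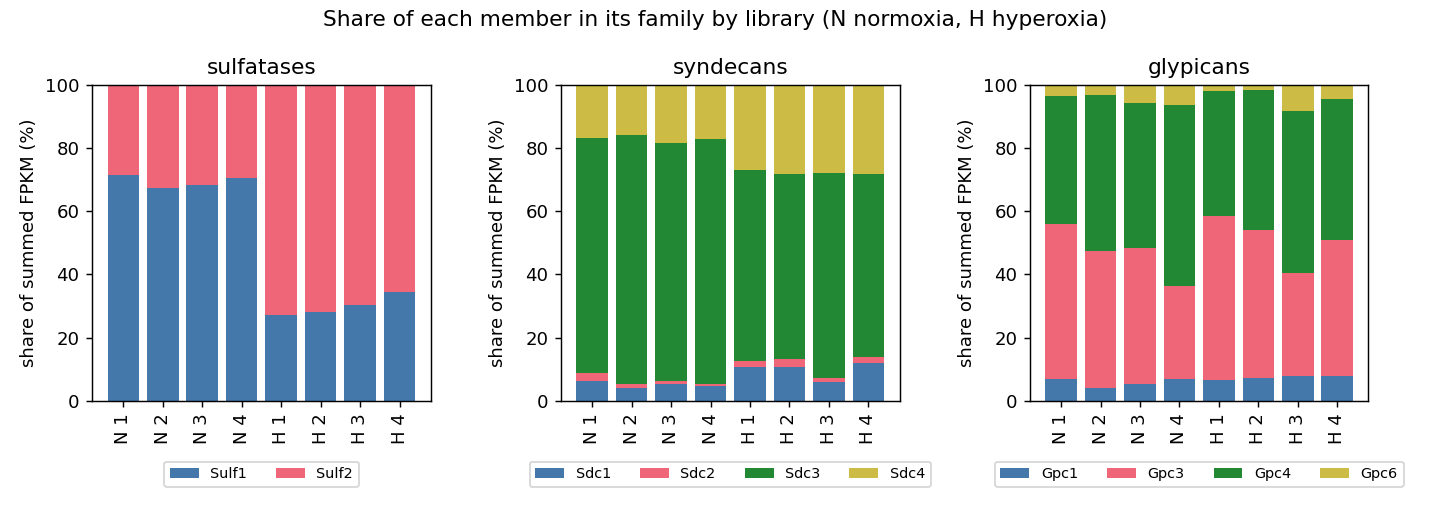
Share of each gene in the summed FPKM of its family, as a percentage, with 1 stacked bar for each library (N, normoxia; H, hyperoxia). The Sulf2 share lies between 28.6 and 32.6% in the normoxia bars and between 65.5 and 72.9% in the hyperoxia bars, the Sdc4 share lies higher in each hyperoxia bar than in any normoxia bar, and the glypican shares overlap between groups.

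Syndecans bind ligands through their heparan sulfate and also signal into the cell through their short tails. Sdc3 was the most abundant of the 10 genes in both groups, at 49.9 ± 0.859 FPKM in normoxia and 58.9 ± 1.99 FPKM in hyperoxia. Its gene (ENSMUSG00000025743) lies at chr4:130792537-130826319 on the plus strand. Its expression was 303, 309, 295 and 299 CPM in normoxia and 356, 365, 358 and 339 CPM in hyperoxia. The groups were separate but close, and the log2 fold change was only 0.23 (SE 0.0417), or 1.18-fold, also without hyperoxia 3. Sdc3 had the smallest spread between libraries, with a coefficient of variation of 2.0% in normoxia and 3.18% in hyperoxia.

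Sdc4, a widely expressed syndecan of cell-matrix adhesion sites (ENSMUSG00000017009, chr2:164424247-164443887, minus strand), was second by mean FPKM in both groups. By mean CPM it ranked lower, since Sulf1 (95.4 CPM) exceeded it in normoxia, and Sulf2 (89.4 CPM) and Sulf1 (74.2 CPM) in hyperoxia. It had 29.3, 26.3, 30.4 and 28.3 CPM in normoxia and 67.7, 74.9, 65.0 and 70.3 CPM in hyperoxia. No library of one group came near the range of the other, and hyperoxia 3 was only slightly lower than the others. The mean was 28.6 ± 1.74 CPM in normoxia and 69.5 ± 4.19 CPM in hyperoxia, which differ by 1.28 on the log2 scale (SE 0.0629), or 2.43-fold, and 1.31 without hyperoxia 3.

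Sdc1, the syndecan typical of epithelia and plasma cells (ENSMUSG00000020592, chr12:8771323-8793715, plus strand), behaved differently from Sdc4 within the hyperoxia group. Its expression was 16.1, 9.73, 13.0 and 11.2 CPM in normoxia and 39.9, 42.1, 20.7 and 43.9 CPM in hyperoxia. All hyperoxia libraries exceeded all normoxia libraries, but hyperoxia 3 was at 0.492 times the mean of the other hyperoxia libraries. The mean was 12.5 ± 2.74 CPM in normoxia and 36.7 ± 10.8 CPM in hyperoxia, which differ by 1.55 on the log2 scale (SE 0.229), and 1.75 without that library.

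Sdc2, a syndecan known mainly from mesenchymal cells (ENSMUSG00000022261, chr15:32920723-33034935, plus strand), was much lower. It had 5.76, 3.19, 2.63 and 1.99 CPM in normoxia and 7.25, 9.80, 4.29 and 6.44 CPM in hyperoxia. Hyperoxia 3 lay below normoxia 1, so the groups overlapped. The log2 fold change was 1.04 (SE 0.326), and 1.21 without hyperoxia 3. It ran from 0.83 to 1.41 when each library was left out in turn.

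Together, the 4 syndecans summed to 65.3 ± 1.61 FPKM in normoxia and 97.5 ± 5.04 FPKM in hyperoxia. The share of Sdc3 in this sum was 76.5 ± 2.0% in normoxia and 60.5 ± 3.19% in hyperoxia, and that of Sdc4 was 17.1 ± 1.02% and 27.8 ± 0.620%. Sdc1 held 4.97 ± 0.986% in normoxia and 9.74 ± 2.62% in hyperoxia, but hyperoxia 3 stood at 5.90%, inside the normoxia range of 3.91 to 6.22%. Sdc2 held 1.45 ± 0.667% and 1.99 ± 0.555%.

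Glypicans modulate Hedgehog, Wnt, BMP and FGF signals at the cell surface. All 4 were expressed at low levels, with a summed 2.91 ± 0.689 FPKM in normoxia and 7.37 ± 2.32 FPKM in hyperoxia. In hyperoxia 3 this sum was 3.91 FPKM, about that of normoxia 1 (3.92 FPKM), while the other hyperoxia libraries had 8.22 to 8.73 FPKM.

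Gpc4 (ENSMUSG00000031119) and Gpc3 (ENSMUSG00000055653), the latter known as an oncofetal glypican that binds Hedgehog ligands, are neighbours on the minus strand of the X chromosome, at chrX:52053021-52165252 and chrX:52272426-52613950. Gpc4 had 4.23, 3.19, 3.41 and 3.87 CPM in normoxia and 8.68, 10.3, 5.32 and 10.3 CPM in hyperoxia, so all hyperoxia libraries were higher. Gpc3 had 5.21, 2.85, 3.25 and 2.04 CPM in normoxia and 11.6, 11.04, 3.43 and 10.1 CPM in hyperoxia. For Gpc3, hyperoxia 3 fell within the normoxia range, at 0.315 times the mean of the other hyperoxia libraries, the lowest such ratio of the 10 genes. The log2 fold change was 1.24 (SE 0.210) for Gpc4 and 1.44 (SE 0.372) for Gpc3, or 1.41 and 1.72 without hyperoxia 3.

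Gpc1, the glypican best known from vascular endothelium and the nervous system (ENSMUSG00000034220, chr1:92831645-92860779, plus strand), rested on only 9 to 62 counts per library. Exons of Ankmy1 cover 18.9% of its exon bases on the opposite strand (Gm26716 6.93% and Gm12970 0.801% of Sdc3, Ncoa3 2.62% of Sulf2), and the use of strand in counting is not given in the sources used here. It had 1.41, 0.512, 0.783 and 0.884 CPM in normoxia and 2.86, 3.17, 1.603 and 3.44 CPM in hyperoxia. The groups did not overlap, although hyperoxia 3 was just above normoxia 1. The log2 fold change was 1.63 (SE 0.332), and 1.82 without hyperoxia 3.

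Gpc6 (ENSMUSG00000058571, chr14:116925315-117976544, plus strand), a glypican that stimulates Hedgehog signals in growing bone, had 9 to 44 counts per library. Its expression was 0.857, 0.512, 1.01 and 1.05 CPM in normoxia and 1.03, 0.906, 2.12 and 2.44 CPM in hyperoxia. Here hyperoxia 3 and 4 were the high libraries, and hyperoxia 1 and 2 lay inside the normoxia range. Its log2 fold change was 0.92 (SE 0.378), with 0.76 without hyperoxia 3 and 1.12 without hyperoxia 2.

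Ordered by FPKM in normoxia, Sdc3 (49.9), Sdc4 (11.1) and Sulf1 (8.38) led, followed by Sulf2 (3.68), Sdc1 (3.26), Gpc4 (1.37), Gpc3 (1.23), Sdc2 (0.954), Gpc1 (0.173) and Gpc6 (0.132). The ranges of neighbouring genes overlapped for Sulf2 and Sdc1, Gpc4 and Gpc3, Gpc3 and Sdc2, and Gpc1 and Gpc6. In hyperoxia, Sulf2 was the third most abundant gene at 15.1 ± 0.887 FPKM, and Sulf1 ranked after Sdc1 at 6.53 ± 1.29 FPKM. Sdc1 had 9.57 ± 2.81 FPKM, and its range overlapped that of Sulf1. Gpc3 (3.34 FPKM), Gpc4 (3.25 FPKM) and Sdc2 (1.96 FPKM) formed a middle group with overlapping ranges, above Gpc1 (0.533 FPKM) and Gpc6 (0.251 FPKM), which also overlapped.

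The genes differed in how their log2 fold changes moved when a score of cell type markers was in the model. The epithelial score, which is the mean log2 CPM of the alveolar and general epithelial markers, was 2.24 to 2.88 in normoxia, 4.05 in hyperoxia 3 and 5.50 to 5.59 in the other hyperoxia libraries. Within the hyperoxia group the score varied mainly through hyperoxia 3, so estimates from a model with it lean on that library. When this score was added to the model, the log2 fold change of Sulf2 was 1.69 (SE 0.153) and that of Sdc4 was 1.05 (SE 0.161). For Sdc3 it was 0.25 (SE 0.126).

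For the genes with a low value in hyperoxia 3, the estimate changed sign. It was -0.32 (SE 0.283) for Sdc1, -0.92 (SE 0.687) for Sdc2, -0.21 (SE 0.751) for Gpc1, -1.83 (SE 0.443) for Gpc3 and -0.20 (SE 0.413) for Gpc4. For Sulf1 and Gpc6, which were not low in hyperoxia 3, it was -0.72 (SE 0.371) and 1.90 (SE 0.955). With the fibroblast score it was 1.88 for Sulf2, 1.18 for Sdc4, 0.73 for Sdc1, 0.73 for Gpc1, 0.57 for Gpc4, 0.02 for Gpc3 and -0.01 for Sdc2. With the mural score, Sdc2 (-0.67) and Gpc3 (-0.54) were below 0, whereas Sulf2 had 1.77 and Sdc4 1.13. The epithelial score did not overlap between groups, and neither did the mural score (1.45 to 2.37 in normoxia and 2.51 to 3.44 in hyperoxia). The fibroblast score did overlap. The part of other cell types in these results was not tested.

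**Figure D3:**
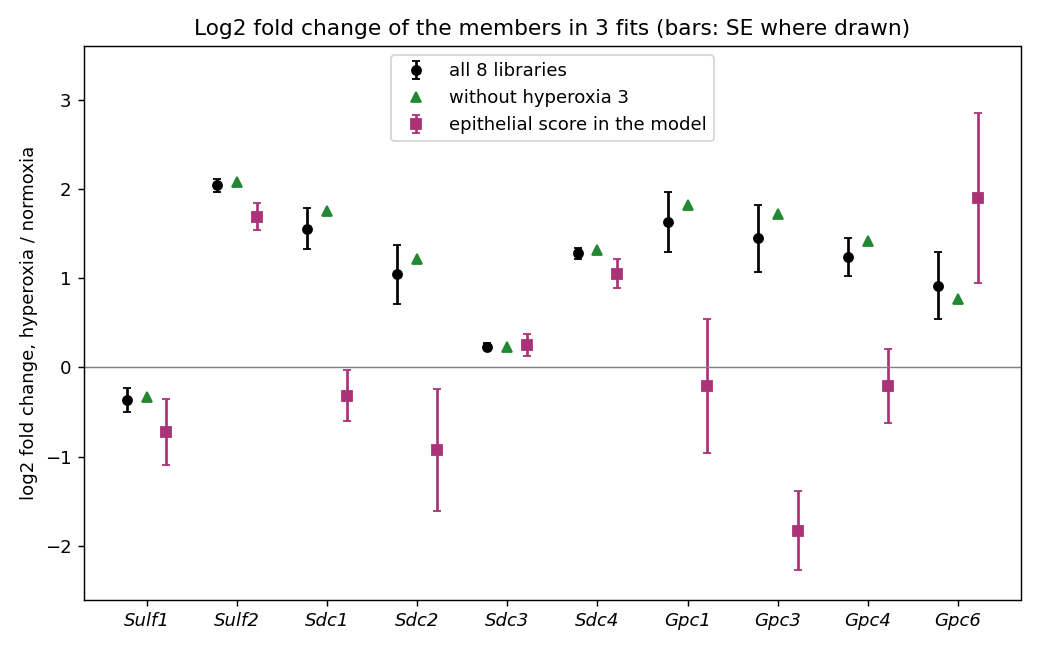
Log2 fold change (hyperoxia relative to normoxia) of the 10 genes in the fit on all 8 libraries, without hyperoxia 3, and with the epithelial score as a term of the model. Bars are SE, not drawn for the fit without hyperoxia 3. Sulf2 and Sdc4 stay at or above 1.05 in each of these fits, while Sdc1, Sdc2, Gpc1, Gpc3 and Gpc4 fall below 0 once the score is included.

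Sulf2, Sdc4 and Sdc3 had small spreads in each group, with a wide group difference for Sulf2 and Sdc4 and a narrow one for Sdc3. The regions upstream of these 3 genes are therefore shown. Each is the stretch of 250 bases before a RefSeq transcription start (GRCm38.p6), written 5′ to 3′ on the strand of the gene. The Sulf2 and Sdc3 stretches lie upstream of the gene as GENCODE draws it. The Sdc4 stretch lies inside its gene, which reaches further upstream, and its overlap with exons was not tested. Capitals mark matches to the GC box (GGGCGG, bound by SP factors) and the TATA box (TATAAA), searched on both strands, so that a GC box on the opposite strand reads CCGCCC.
Sulf2, chr2:166155684-166155933, minus strand: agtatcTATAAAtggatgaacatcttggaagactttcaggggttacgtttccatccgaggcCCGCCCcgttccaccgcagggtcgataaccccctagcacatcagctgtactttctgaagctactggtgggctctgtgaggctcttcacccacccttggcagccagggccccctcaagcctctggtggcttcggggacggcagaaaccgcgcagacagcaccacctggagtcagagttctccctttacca
Sdc4, chr2:164443189-164443438, minus strand: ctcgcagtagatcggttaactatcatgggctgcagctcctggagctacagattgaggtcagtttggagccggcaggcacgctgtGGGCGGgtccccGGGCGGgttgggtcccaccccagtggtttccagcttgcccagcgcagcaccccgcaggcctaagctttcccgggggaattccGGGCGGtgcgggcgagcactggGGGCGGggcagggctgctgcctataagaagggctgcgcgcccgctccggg
Sdc3, chr4:130792287-130792536, plus strand: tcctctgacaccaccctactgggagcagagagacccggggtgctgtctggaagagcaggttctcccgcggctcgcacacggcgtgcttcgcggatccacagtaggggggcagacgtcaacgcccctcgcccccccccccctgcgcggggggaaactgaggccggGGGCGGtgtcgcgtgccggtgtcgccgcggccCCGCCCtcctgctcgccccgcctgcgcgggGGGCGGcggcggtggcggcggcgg
The Sulf2 stretch held 1 GC box (189 to 184 bases before the start, on the opposite strand) and 1 TATA box letter match 244 to 239 bases before the start. Sdc4 held 4 GC boxes, beginning 166, 154, 72 and 50 bases before the start, and Sdc3 held 3, beginning 86, 54 and 24 bases before it. A GC box was present in 32.7% and a TATA box in 12.4% of all 32851 such stretches. None of the 3 stretches held the AP-1 letters TGACTCA (4.46% of all stretches), the antioxidant response element core TGACNNNGC (10.2%) or a p53 half-site (7.13%). The GC content was 57.2% for Sulf2, 68% for Sdc4 and 76.4% for Sdc3, against a median of 52.4%, with 10, 19 and 32 CpG dinucleotides against a median of 6. RefSeq gives a second start of Sulf2, whose stretch (chr2:166155286-166155535) lies inside the gene and is not printed. That stretch held none of the 5 motifs at a GC content of 60% and 21 CpG dinucleotides. RefSeq stretches were found for 6 of the 10 genes.

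The expression pattern of Sulf2 over the 8 libraries was compared with that of 9076 protein-coding genes, each centred on its own mean log2 CPM. The smallest root mean square differences were those of Aen (0.0689), Phlda3 (0.0807), Fat1 (0.134), Fam81a (0.134) and Sh3bgrl2 (0.140), where the median over all compared genes was 1.03. Aen, which encodes a nuclease, had 18.5 ± 0.935 CPM in normoxia and 72.5 ± 5.16 CPM in hyperoxia. These likenesses describe 8 libraries that fall into 2 groups, and any gene with a similar difference between the groups scores as alike.

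The remaining core proteins that carry heparan sulfate were then examined. Like the lists below, this list was written with earlier results of these data known, so its adjusted p-values are no independent test. Of these 9 core proteins, 6 could be tested. Beside 18.5% upward and 17.1% downward of all tested genes, 3 of these rose in hyperoxia (50%) and none fell, with or without hyperoxia 3. Their median was 0.42 on the log2 scale, and that of all tested genes was -0.004. Col18a1, the basement membrane collagen from which endostatin is cut, rose from 44.9 ± 7.65 to 188 ± 29.2 CPM, or by 2.07 on the log2 scale (SE 0.138, adjusted p = 2.04e-06 in edgeR, and 2.06 without hyperoxia 3). Hspg2, which encodes perlecan, a main proteoglycan of vascular basement membranes, rose from 517 ± 33.1 to 937 ± 86.3 CPM (0.86 with and without hyperoxia 3, adjusted p = 8.79e-06). Spock2, a matrix proteoglycan also made by alveolar epithelium, rose from 10.9 ± 2.07 to 57.5 ± 20.2 CPM (2.40, or 2.63 without hyperoxia 3, adjusted p = 7.49e-05). Like Sdc1, it was low in hyperoxia 3, at 27.4 CPM against 64.9 to 70.5 CPM. Agrn, encoding agrin, had 926 ± 65.8 and 913 ± 81.4 CPM (adjusted p = 0.849). With the epithelial score in the model, Col18a1 alone of these still passed (1.94, adjusted p = 0.0228), while Hspg2 had 0.82 (adjusted p = 0.0875) and Spock2 0.07 (adjusted p = 0.935). In that fit 197 of all 15564 tested genes passed upward and 40 downward.

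Heparan sulfate chains are started on a short linker, polymerised by the EXT enzymes and then modified by sulfotransferases and an epimerase, from sulfate and sugar donors. Of the 34 genes of these steps, 25 could be tested. Among them 6 rose and 5 fell (7 and 5 without hyperoxia 3), and their median log2 fold change was 0.07. These are shares of 24% and 20%, near the 18.5% and 17.1% of all tested genes. A log2 fold change of at least 1 was also reached by 4 upward and 0 downward, against 5.62% and 1.36% of all tested genes. With the epithelial score, 1 rose and 0 fell at the adjusted p alone, where 197 and 40 of all 15564 tested genes did. In the linker and donor group, Papss2, which makes the sulfate donor, rose from 1.17 ± 0.280 to 3.45 ± 1.57 CPM (1.56, adjusted p = 0.00345), while its more abundant relative Papss1 had 77.7 ± 4.30 and 81.2 ± 4.04 CPM (adjusted p = 0.413). Xylt2, whose product adds the first sugar of the linker, fell from 81.2 ± 4.30 to 59.3 ± 3.51 CPM (-0.45, adjusted p = 1.54e-04). The other genes that fell, named after their values were seen, were Slc35b3 (-0.60), a carrier of the sulfate donor, Ugdh (-0.36), which makes UDP-glucuronate, Glce (-0.38), the epimerase, and Ndst1 (-0.21). Among the polymerases, Ext2 (138 ± 6.13 and 147 ± 6.69 CPM, adjusted p = 0.171) and Extl3 (89.9 ± 3.52 and 97.1 ± 4.05 CPM, adjusted p = 0.0948) did not pass, and Ext1, the sixth gene to rise and likewise named afterwards, had a log2 fold change of 0.23 (adjusted p = 0.00715).

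Of the 9 tested modification genes, 4 rose (44.4%) and 2 fell (22.2%), with or without hyperoxia 3. The shares of all tested genes were 18.5% and 17.1%. N-deacetylase/N-sulfotransferases begin sulfation of the chain. Ndst1, by CPM the main gene of this list, fell from 291 ± 16.5 to 251 ± 12.2 CPM (adjusted p = 0.0111). Ndst3 had 0.857, 0.455, 0.783 and 0.387 CPM in normoxia and 7.25, 6.23, 7.84 and 6.49 CPM in hyperoxia. The groups were far apart and hyperoxia 3 was the highest library. This rise of 3.48 (SE 0.234, adjusted p = 2.13e-06, and 3.42 without hyperoxia 3) was still there with the epithelial score (3.67, adjusted p = 0.00697), and it rested on 7 to 137 counts per library.

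Hs2st1, the 2-O-sulfotransferase, rose from 38.3 ± 1.52 to 62.0 ± 8.95 CPM (0.69, or 0.79 without hyperoxia 3, adjusted p = 2.74e-04), with hyperoxia 3 at 48.8 CPM against 64.5 to 67.6 CPM. With the epithelial score its log2 fold change was -0.05 (adjusted p = 0.916). Hs6st2, which adds the 6-O-sulfate that the SULF enzymes take off, rose from 0.117 ± 0.0838 to 1.05 ± 0.424 CPM (3.11, or 3.22 without hyperoxia 3, adjusted p = 0.00144), at 0 to 28 counts per library. Its more abundant relative Hs6st1, named after its values were seen, had 26.9 ± 0.821 and 25.1 ± 0.366 CPM (adjusted p = 0.168). Hs3st3b1, a 3-O-sulfotransferase, rose from 1.67 ± 0.562 to 3.42 ± 0.726 CPM (1.04, adjusted p = 0.00967).

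**Figure D4:**
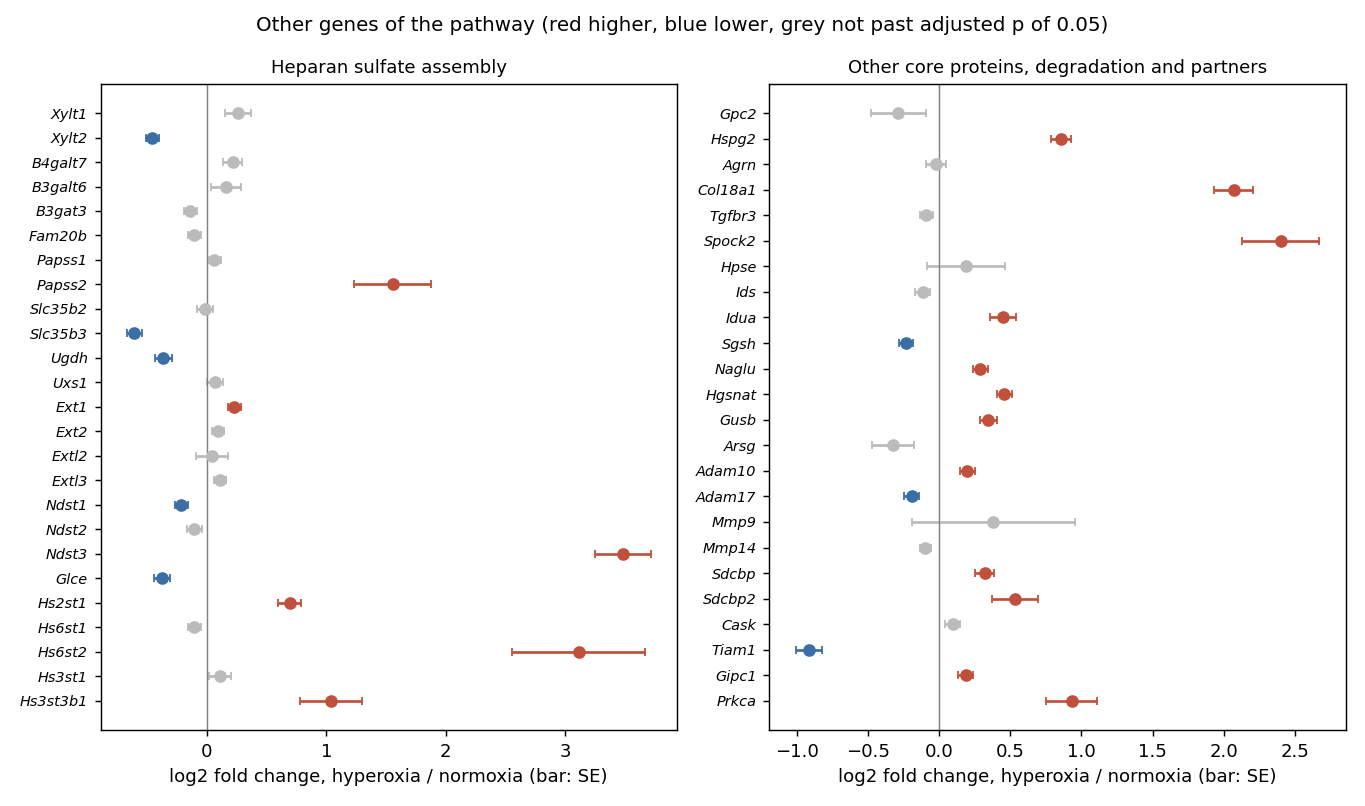
Log2 fold change (hyperoxia relative to normoxia) with SE of the tested genes of heparan sulfate assembly (left) and of other core proteins, lysosomal degradation, shedding and cytoplasmic partners (right). Red and blue mark genes past an adjusted p of 0.05, higher and lower in hyperoxia. Among assembly genes 6 are red and 5 are blue, and Ndst3 (3.48) and Hs6st2 (3.11) lie farthest to the right.

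Heparan sulfate is broken down by heparanase and lysosomal enzymes. Of 8 tested genes, 4 rose (50%) and 1 fell (12.5%), none by a log2 fold change of 1. The shares of all tested genes were 18.5% and 17.1%. Both counts of the 8 genes were the same without hyperoxia 3. With the epithelial score in the model both were 0, where 197 of all 15564 tested genes passed upward and 40 downward. Gusb, encoding beta-glucuronidase, rose from 68.1 ± 4.62 to 86.6 ± 3.64 CPM (0.35, adjusted p = 8.80e-04), while Ids, encoding iduronate 2-sulfatase, had 74.5 ± 3.16 and 68.8 ± 3.76 CPM (adjusted p = 0.119). Ids passed as lower with the fibroblast score in the model (adjusted p = 0.0446). Of 10 tested genes for shedding and for partners of the syndecan tail, 5 rose (50%) and 2 fell (20%), also without hyperoxia 3. With the epithelial score 0 passed in either direction, beside the same 197 and 40 of all tested genes. Sdcbp, which encodes syntenin, a syndecan-binding adaptor, rose from 336 ± 31.0 to 420 ± 20.1 CPM (0.32, adjusted p = 0.00354), and the membrane protease gene Mmp14 had 285 ± 4.46 and 266 ± 4.14 CPM (adjusted p = 0.0752). Mmp14 passed as lower with upper-quartile scaling (adjusted p = 0.0353), with library totals alone (adjusted p = 0.0334) and among protein-coding genes (adjusted p = 0.0348).

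Of 17 tested ligand genes that bind heparan sulfate, 8 rose (47.1%) and 5 fell (29.4%), or 10 and 5 without hyperoxia 3. The shares of all tested genes were 18.5% and 17.1%. Hbegf, an EGF receptor ligand, fell from 85.6 ± 12.1 to 31.4 ± 1.62 CPM (-1.45, adjusted p = 1.88e-06). Cxcl12 fell from 917 ± 106 to 605 ± 45.4 CPM (-0.60, adjusted p = 3.15e-04) and Vegfa from 555 ± 58.1 to 429 ± 10.3 CPM (-0.37, adjusted p = 0.00203). The guidance ligand gene Slit3 rose from 25.7 ± 2.67 to 52.0 ± 3.24 CPM (1.02, adjusted p = 5.68e-06), and the low-count genes Fgf18 (1.74), Pgf (1.80), Ptn (1.09) and Shh (2.83) rose with means of at most 4.65 CPM. None of these ligand genes passed with the epithelial score in the model, where 197 of all 15564 tested genes passed upward and 40 downward. In that fit Hbegf had -1.34 (adjusted p = 0.0535) and Slit3 0.97 (adjusted p = 0.0668).

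Chondroitin sulfate shares the linker with heparan sulfate and served for comparison. Of its 15 tested enzymes 7 rose (46.7%) and 1 fell (6.67%). Of its 10 tested core proteins 5 rose (50%) and 1 fell (10%). These counts were the same without hyperoxia 3. The shares of all tested genes were 18.5% and 17.1%. With the epithelial score 0 genes of both lists passed, where 197 of all 15564 tested genes passed upward and 40 downward. Csgalnact1, whose product commits the linker to chondroitin sulfate, rose from 72.0 ± 5.27 to 109.5 ± 5.72 CPM (0.61, adjusted p = 3.42e-05), and Chst15 had 88.5 ± 1.77 and 91.3 ± 4.91 CPM (adjusted p = 0.508). Chsy3 (1.29) and Ust (1.61) rose at means below 2 CPM. Vcan (1.23), Dcn (1.71), Bcan (1.04) and Cspg4 (1.69) rose among the core proteins, of which Dcn is also on the fibroblast and Cspg4 on the mural marker list. Some of these calls depended on single libraries. Dcn did not pass without hyperoxia 2 (adjusted p = 0.0510) or hyperoxia 4 (adjusted p = 0.0520), Bcan without normoxia 1, normoxia 4, hyperoxia 1 or hyperoxia 2 (adjusted p of 0.0520 to 0.0642), and Chsy3 without normoxia 3, normoxia 4, hyperoxia 1, hyperoxia 2 or hyperoxia 4 (adjusted p of 0.0633 to 0.0836). The core proteins most abundant over all libraries, Thbd (1442 ± 66.9 and 1559 ± 130 CPM, adjusted p = 0.200) and Srgn (326 ± 24.5 and 358 ± 14.5 CPM, adjusted p = 0.10), did not pass, apart from Srgn without normoxia 3 (adjusted p = 0.0388). Bgn, named after its values were seen, rose from 222 ± 43.9 to 412 ± 43.5 CPM (0.89, adjusted p = 3.67e-04 in edgeR) and exceeded Srgn in mean CPM in hyperoxia. Whether heparan and chondroitin sulfate genes differed from each other was not tested.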

How the data were processed

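Bulk RNA-seq of lung ECs from 4 normoxia and 4 hyperoxia libraries was analysed, grouped by sample title. The authors deposited whole-number gene counts and FPKM values of 54532 genes. The submitters' processing notes name HISAT2 2.0.5, featureCounts 1.5.0-p3 and build mm10. The strand setting and the handling of multimapping reads are not given in the sources used here. All 10 genes had the same coordinates in GENCODE M21 (GRCm38).

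Counts were tested in R 4.3.3 with the edgeR 4.0.16 quasi-likelihood test (TMM, filterByExpr with a minimum count of 10 and a minimum total of 15, Benjamini-Hochberg over 15564 genes). The SE follows from the F statistic. CPM are scaled to the TMM-normalized library size, with a prior count of 2 on the log2 scale. The deposited FPKM equal the count over gene length and library total within a relative deviation of 4e-08 and served to compare genes. Alternatives used other normalizations and filters, DESeq2 1.42.0 (the tool of the study), limma 3.58.1 (voom, or log2 FPKM with a pseudocount of 0.1 or 1), marker scores as covariates, replicate number as a block and leaving out each library.

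The 10 genes and all lists were chosen with earlier results of these data known, and 1 gene of the degradation list is not reported here. Of each list, genes past both thresholds and the 2 most abundant tested genes are named, and for Sulf2 the 5 most alike protein-coding genes of at least 10 mean CPM. Libraries of a group differed by more than counting noise (chi-square of 4.99 to 18.1 for each degree of freedom), so intervals from counting were not used.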

Additional observations from a re-analysis of the deposited data

Results flagged for a closer look

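In groups of 4 libraries, a library was singled out where its gap to the nearest other library, divided by the range of the group, exceeded Dixon's critical value at the 95% level. This was checked for 112 groups of values (the 10 genes, the other named genes and the marker sums), of which 13 exceeded it where chance gives 5.6.

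In hyperoxia 3, 1 of the 10 genes was singled out, Sdc1, at 20.7 CPM against 39.9–43.9 CPM in the other hyperoxia libraries. The same library was the low one for Spock2 (27.4 CPM against 64.9–70.5 CPM), Ext2 (137 CPM against 149–151 CPM), Hs2st1 (48.8 CPM against 64.5–67.6 CPM) and Chsy3 (0.458 CPM against 1.14–1.28 CPM). It was also the low one for the summed alveolar type 1 markers (157 CPM against 401.5–449 CPM) and the summed general epithelial markers (17.9 CPM against 53.2–59.7 CPM). The part of these markers in the values of the single genes was not tested.

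Normoxia 1 was the high library for Hs2st1 (40.6 CPM against 37.4–37.7 CPM) and the summed mural markers (47.9 CPM against 23.5–27.6 CPM). Normoxia 4 was low for Mmp14 (278 CPM against 286–287 CPM). Hyperoxia 1 was high for Sdcbp (449.8 CPM against 408–411 CPM) and low for Pgf (1.31 CPM against 2.52–2.72 CPM). Hyperoxia 4 was high for Hs3st3b1 (4.49 CPM against 2.91–3.17 CPM).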

How the results depend on the processing

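The number of genes called in the whole comparison was 1087, and 5535 without a minimum fold change. It was 330 in limma with a pseudocount of 1 on FPKM, 173 with the epithelial score, 594 with the fibroblast score, 322 with the mural score, and 1011 to 1287 when a library was left out. Of the 10 heparan sulfate genes, 7 passed both thresholds under the other normalizations, filters and tests. This number was 3 in limma with a pseudocount of 1 (Sulf2, Sdc1 and Sdc4), 2 with each of the marker scores (Sulf2 and Sdc4) and 6 to 7 when a library was left out. Assembly genes higher in hyperoxia (6) numbered 1 with the epithelial, 2 with the fibroblast and 1 with the mural score. They numbered 4 with a minimum log2 fold change of 1, and 6 to 8 when a library was left out. Those lower (5) numbered 0, 2 and 1 with these scores, 0 with a minimum log2 fold change of 1, and 5 to 6 when a library was left out. The replicate numbers did not pair the libraries: correlations of same-numbered libraries ran from -0.14 to 0.119, and 0 hyperoxia libraries were most like their own number. With the replicate block, 1057 genes were called and the counts of 7, 6 and 5 did not change. The shares within families depended on scaling by gene length. In CPM the mean share of Sulf2 was 18.7% in normoxia and 54.9% in hyperoxia. That of Sdc3 was 87.15% and 75.9%, and that of Sdc4 was 8.27% and 14.9%.

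Changes of sign came with the marker scores, and their cause was not tested. With the epithelial score the log2 fold change was -0.32 for Sdc1, -0.92 for Sdc2, -0.21 for Gpc1, -1.83 for Gpc3, -0.20 for Gpc4, 0.41 for Agrn, -0.17 for Ext2, -0.052 for Hs2st1, -1.35 for Chsy3 and -0.57 for Cspg4. With the fibroblast score it was -0.014 for Sdc2, 0.13 for Agrn and -0.018 for Ext2. With the mural score it was -0.67 for Sdc2, -0.54 for Gpc3, 0.20 for Agrn, -0.072 for Ext2, -0.45 for Chsy3 and -0.34 for Cspg4. Agrn, close to 0, also changed sign without normoxia 4 (0.018), hyperoxia 1 (0.00089) or hyperoxia 4 (0.023), and ran from -0.079 to 0.023 when a library was left out.

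Depth limits Gpc1 and Gpc6 most among the 10 genes, with at most 62 and 44 counts per library.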
